A study of Mus musculus with 4 samples.

Results

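The inflammatory monocytes described here were 601 cells of the WT and TNF-Tg single-cell RNA-seq libraries, of which 85 were WT and 516 TNF-Tg, out of 8879 cells in those libraries and 10837 cells in the series. The libraries came from popliteal lymphatic vessels (PLVs) and the adjacent superficial saphenous vein (SSV) of the lower limb, located by Evans blue dye injected into the hindpaw. WT and TNF-Tg mice were of a C57BL/6J background, and TNF-Tg mice carry a tumor necrosis factor transgene and develop chronic inflammatory-erosive arthritis. Mice of both groups were 9 months old by the sample labels and male by the study's methods, and each library pooled the digested vessels of 3 mice, sorted for live cells of high forward and/or side scatter, a gate meant for smooth muscle cells. The other 2 libraries, tdT1 and tdT2, held tdTomato-positive cells of Cspg4-Cre;Ai9-tdTomato mice of both sexes, with 3 mice in each.

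The cells were chosen by their own transcript counts. A member had fewer than 20 unique molecular identifiers (UMIs, each one captured mRNA molecule) of Dcn per 10000, which leaves out stromal cells, and at least 4 UMIs of Chil3, Ly6c2 and Plac8 together. It also had fewer than 10 UMIs of the complement genes C1qa, C1qb and C1qc, at most 1 of the neutrophil genes Retnlg and Cxcr2, at most 2 of the patrolling monocyte genes Treml4, Eno3, Spn and Ace, and fewer than 3 of Flt3, Cd209a and Klrd1, which mark dendritic and natural killer cells. These 16 genes were left out of all counts of genes below. With 1 library per condition, made on separate days, condition and library cannot be told apart, cells are not replicates, and no p-value was computed. Every interval is a 95% interval of counting error only.

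Inflammatory monocytes, known by high Ly6C and CCR2 in mice, leave the bone marrow through CCR2 and enter tissues during inflammation. They can keep a blood-like state or take up programmes of macrophages and antigen-presenting cells, among which surface display of peptides on MHC class II is the best known. The transcription of MHC class II genes depends on the co-activator CIITA, encoded by Ciita. CIITA joins factors bound upstream of each gene, including NF-Y at an element called the Y box. TNF signals through NF-kB, whose inhibitor gene Nfkbia is itself a target and closes a feedback loop.

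The promoters of 3 genes are shown because MHC class II was the gene list with the lowest median ratio between the conditions and because Nfkbia had the highest ratio among the NF-kB genes counted. Sequences and RefSeq starts are from GRCm38.p6, and each run is the 250 bases before the RefSeq start, written 5′ to 3′ on the strand of the gene. Capitals mark TGATTGG, the Y box (searched with its reverse complement CCAATCA), in H2-Aa and H2-Eb1, and a kappa B element, searched as exactly those letters and their reverse complement, in Nfkbia. The windows are chr17:34287824-34288073 on the minus strand for H2-Aa, chr17:34305617-34305866 on the plus strand for H2-Eb1 and chr12:55492648-55492897 on the minus strand for Nfkbia.
H2-Aa: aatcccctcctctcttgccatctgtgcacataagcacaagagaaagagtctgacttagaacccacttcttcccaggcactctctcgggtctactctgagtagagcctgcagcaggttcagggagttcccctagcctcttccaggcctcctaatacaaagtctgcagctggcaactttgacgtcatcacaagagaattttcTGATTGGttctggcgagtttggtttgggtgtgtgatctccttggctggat
H2-Eb1: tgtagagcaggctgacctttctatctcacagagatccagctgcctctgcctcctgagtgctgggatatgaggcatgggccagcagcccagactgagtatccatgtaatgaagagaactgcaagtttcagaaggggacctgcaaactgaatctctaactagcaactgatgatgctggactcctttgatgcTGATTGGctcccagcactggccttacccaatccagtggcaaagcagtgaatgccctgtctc
Nfkbia: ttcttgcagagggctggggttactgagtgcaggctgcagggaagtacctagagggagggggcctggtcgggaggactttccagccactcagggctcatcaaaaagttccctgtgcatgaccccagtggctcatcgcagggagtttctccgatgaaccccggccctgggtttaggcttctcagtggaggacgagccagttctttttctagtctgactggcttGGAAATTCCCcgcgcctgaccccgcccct

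The Y box letters began 50 bases before the start in H2-Aa and 61 bases before it in H2-Eb1. They were present in 4 of 7 promoters of the 6 MHC class II list genes with an entry, those of H2-Aa, H2-Eb1, H2-DMb1 and H2-DMb2, and in 7.23% of 32851 promoters of that length. The kappa B letters began 29 bases before the start of Nfkbia. They were present in 1 of 24 promoters of the NF-kB list, in 3 of 16 of the cytokine list (Cxcl1, Cxcl2 and Cxcl3) and in 0.0852% of all promoters. These matches describe the sequence and show nothing about binding in these cells.

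The label was checked against genes outside the gate. Values are CPM, the UMIs of a gene summed over the members of 1 library per 1000000 UMIs of those members, and stromal cells (20 or more UMIs of Dcn per 10000) of the same library give the background. Lyz2, the lysozyme of myeloid cells, was at 25340 CPM in the WT members and 18421 CPM in the TNF-Tg members, against 336 and 370 CPM in stromal cells. Ccr2, the receptor that brings monocytes out of the marrow, was at 1974 and 1074 CPM, against 19.5 and 18.2 CPM. Itgam (CD11b) was at 259 and 282 CPM, Csf1r, the receptor of the monocyte growth factor CSF1, at 334 and 358 CPM, and F13a1, a coagulation factor subunit carried by monocytes, at 933 and 731 CPM. All of these were above the stromal background in both libraries. After each cell was thinned to 3000 UMIs, Ccr2 was detected in 96.4% of WT and 81.2% of TNF-Tg members, against 1.77% and 1.39% of stromal cells. The unthinned shares were 96.5% and 92.1%.

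The rule also took in cells that were not monocytes by these markers. Lyz2 was below 10 UMIs in 5 of 85 WT members and 58 of 516 TNF-Tg members. Of these 58 cells, 35 held at least 3 UMIs of the mast cell and basophil markers, 27 of the neutrophil markers, 16 of the T and NK cell markers, 15 of the stromal markers, 14 of the dendritic cell markers and 9 of the B cell markers, and a cell may count under several. Of the 5 WT cells, 3 passed the mast cell and basophil limit and 3 the T and NK cell limit. The dendritic cell limit was passed by 2, the resident macrophage limit by 2 (3 in TNF-Tg), and the neutrophil, stromal and B cell limits by 1 each. Mcpt8, the basophil protease, was listed at 0 in all WT members and at 69.7 CPM in TNF-Tg members, where 100% of its UMIs came from cells with Lyz2 below 10. Values for the 80 and 458 members with at least 10 UMIs of Lyz2 are therefore given beside several of the results.

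Markers of other cells were counted over all members as well, with the most abundant gene of each list by the mean of both libraries. The 10 T and NK cell markers summed to 148 (WT) and 62.6 CPM (TNF-Tg), with Trbc2 the most abundant at 30.3 and 14.4 CPM and Gzma listed at 0 in WT, and to 7.82 and 1.14 CPM over the members with Lyz2. The 7 mast cell and basophil markers summed to 157 and 219 CPM, with Mcpt4 at 62.8 and 27.8 CPM (in TNF-Tg below Mcpt8), and to 112 and 51.7 CPM over the members with Lyz2. The 6 B cell markers summed to 159 and 155 CPM, led by Ighm at 153 and 97.5 CPM, with Ms4a1 listed at 0 in WT. The 13 neutrophil markers summed to 275 and 565 CPM, led by Cxcl2, and Camp and Ngp were at 0 in both libraries and Ly6g at 0 in WT. The 9 resident macrophage markers summed to 295 and 580 CPM, with Mrc1 at 143 and 230 CPM and Pf4 at 75.8 and 247 CPM, with Lyve1 and Timd4 at 0 in TNF-Tg. The 11 stromal markers summed to 273 and 320 CPM, against 49207 and 36913 CPM in stromal cells, led by Gsn. The 9 dendritic cell markers summed to 332 and 78.4 CPM, led by Clec10a. The 7 erythroid and platelet markers stayed at 6.50 and 23.8 CPM, with Alas2 at 0 in both. The 6 endothelial markers were led by Flt1 at 10.8 and 1.42 CPM, with Emcn at 0 in both. Except where a value without these cells is given, their part in the results was not tested.

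Median UMIs and genes per member were alike in the libraries. The median member held 11237 UMIs and 2775 genes in WT and 10887.5 UMIs and 2763 genes in TNF-Tg, of library medians of 12660 and 10605 UMIs per cell. Mitochondrial genes gave a median of 1.66% and 1.33% of a member's UMIs. Summed members held 923015 UMIs in WT and 5640654 in TNF-Tg, so that values from WT are the less precise of each pair. Scrublet predicted 0 WT and 3 TNF-Tg members to be doublets, of 137 and 74 predicted in the whole libraries, and none was removed. WT and TNF-Tg shared 2 cell barcodes, none of which was a member in both.

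At the lower limit of the marker sum, 7 WT and 16 TNF-Tg members held 4 UMIs of Chil3, Ly6c2 and Plac8, with a median of 14 and 49 UMIs of Lyz2. Just outside it, 4 WT and 16 TNF-Tg cells that met every other criterion held 3 UMIs, with a median of 97 and 12.5 UMIs of Lyz2. At the limit of the patrolling genes, 2 WT and 64 TNF-Tg members held 2 UMIs, and 5 and 40 cells just outside it held 3. TNF-Tg thus held more cells than WT on both sides of that limit.

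Inflammatory monocytes made up a larger share of the TNF-Tg library. They were 1.55% of all WT cells (85 of 5488, exact Clopper-Pearson interval 1.24 to 1.91%) and 15.2% of all TNF-Tg cells (516 of 3391, interval 14.02 to 16.5%), a ratio of 9.82 (7.80 to 12.5). Among cells with low Dcn, the shares were 2.69% of 3155 and 23.2% of 2228, a ratio of 8.60 (6.82 to 10.9). Since the gate was set on these cells, the shares are a description. Sorting by scatter and the digestion can set them too, and this was not tested.

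Members with many and with few MHC class II transcripts were found in both libraries, in very different proportions. The UMIs of H2-Aa, H2-Ab1, H2-Eb1 (chains of the peptide-presenting molecules) and Cd74 (the invariant chain that guides them) were summed per cell and scaled to 10000 UMIs. The median member held 238 such UMIs per 10000 in WT and 1.07 in TNF-Tg. Stromal cells held a mean of 8.97 and 2.17. In WT, 43 of 85 members held 200 or more, 36 held fewer than 25 and 6 lay between. In TNF-Tg, 440 of 516 members held fewer than 25, 53 lay between and 23 held 200 or more. Of those 23, 8 had Lyz2 below 10 UMIs, and of the 43 in WT 0 had. The highest member with Lyz2 reached 792 in WT and 489 in TNF-Tg.

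**Figure D1:**
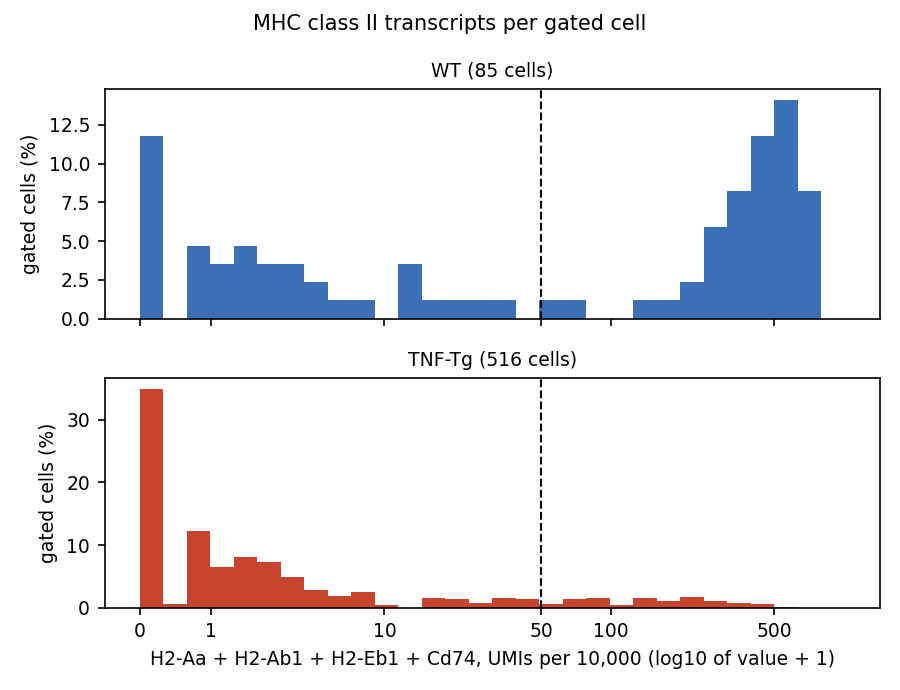
UMIs of H2-Aa, H2-Ab1, H2-Eb1 and Cd74 per 10,000 UMIs of each gated cell (x axis, log10 of the value + 1) against the share of gated cells in percent (y axis), for 85 WT cells (top) and 516 TNF-Tg cells (bottom), with a dashed line at 50. WT cells sat in a low and a high range on either side of the line, and most TNF-Tg cells sat in the low range.

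With a limit of 50 per 10000, the members with Lyz2 were divided into MHC-low and MHC-high ranges, which are not offered as cell types. The MHC-low range held 33 WT cells (38.8% of members, 28.4 to 50.01%) and 410 TNF-Tg cells (79.5%, 75.7 to 82.9%). The MHC-high range held 47 WT cells (55.3%, 44.1 to 66.1%) and 48 TNF-Tg cells (9.30%, 6.94 to 12.1%). Of the members with Lyz2, 4 in WT and 36 in TNF-Tg lay within 25 to 100, near the limit. As a share of all cells of the library, MHC-low monocytes were 0.601% in WT and 12.1% in TNF-Tg, a ratio of 20.1 (14.1 to 29.6). MHC-high monocytes were 0.856% and 1.42%, a ratio of 1.65 (1.08 to 2.53). Both intervals cover counting error in 1 library per condition.

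**Figure D2:**
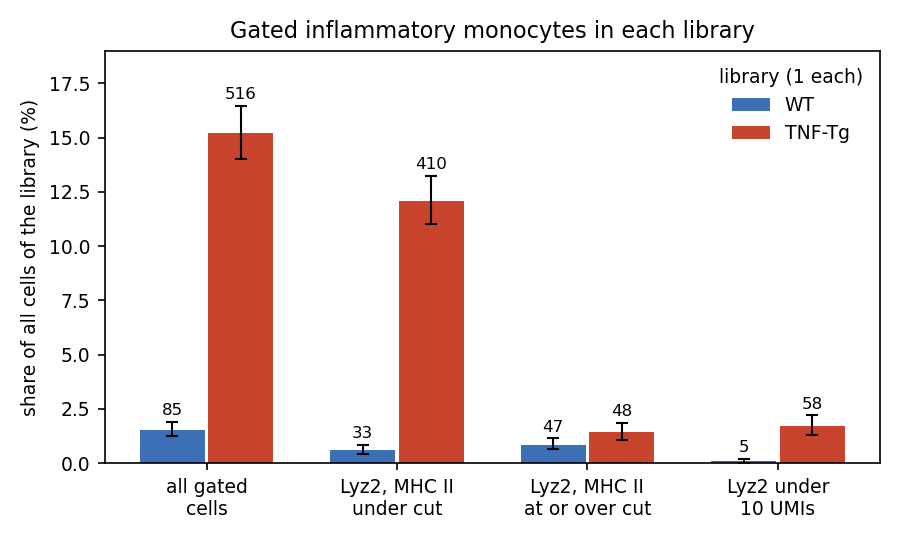
Gated cells as a share of all cells of the WT (blue) and TNF-Tg (red) libraries in percent, for all members and for the members with Lyz2 in the MHC-low range, with Lyz2 in the MHC-high range, and with Lyz2 below 10 UMIs. Bars are single libraries, error bars are exact 95% counting intervals and numbers are cells: the MHC-low bars stand at 0.601% and 12.1%, and the MHC-high bars at 0.856% and 1.42%.

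The summed members were then compared gene by gene to ask how the transcripts of these cells differed between TNF-Tg and WT. Of the lists below, 7 of 8 MHC class II genes were at least 2-fold lower in TNF-Tg members. At least 2-fold higher were 5 of 15 macrophage genes, 4 of 10 cytokine genes, 3 of 9 NF-kB genes and 3 of 12 alarmin genes. Over the members with Lyz2 the macrophage count was 3 of 13 and the cytokine count 2 of 8. Of 2521 genes with a mean of at least 50 CPM, 50 were at least 2-fold higher in TNF-Tg (1.98%) and 63 at least 2-fold lower (2.50%). The median log2 ratio over all of them was 0.06, and 75.8% lay within 0.5 of 0. The split depended on the scaling, since TMM factors gave 65 higher and 52 lower, and median-of-ratios factors 64 and 52. With the 80 and 458 members with Lyz2 only, 52 of 2526 were higher (2.06%) and 60 lower (2.38%).

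**Figure D3:**
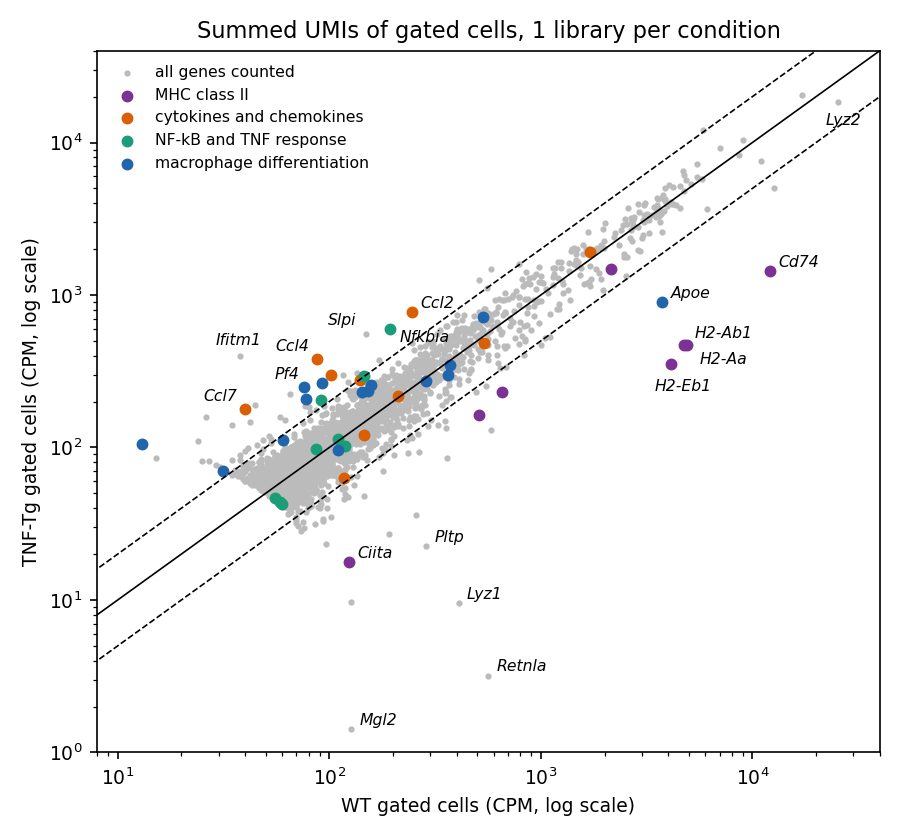
CPM of each of 2521 genes over the summed gated cells of WT (x axis) and TNF-Tg (y axis), both on log scales, with lines at equal values and at 2-fold. MHC class II genes (purple) such as H2-Aa, at 4921 and 469 CPM, lie below the lower line, and Ccl2, at 246 and 775 CPM, and Nfkbia, at 193 and 598 CPM, lie above the upper one.

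Antigen presentation genes were lower in TNF-Tg members with few exceptions. Of 11 genes on the MHC class II list, 8 passed the limit on low values, 0 were 2-fold higher and 7 were 2-fold lower, with a median log2 ratio of −2.94. H2-Aa (chr17:34282744-34287823) was at 4921 (WT) and 469 CPM (TNF-Tg), a log2 ratio of −3.39 (−3.46 to −3.32). H2-Eb1 (chr17:34305867-34316674) was at 4128 and 355 CPM (log2 ratio −3.54, −3.62 to −3.46) and H2-Ab1 (chr17:34257689-34269419) at 4740 and 473 CPM (log2 ratio −3.32, −3.39 to −3.25). Cd74 stood at 12143 and 1435 CPM, and Ciita, their co-activator, at 124 and 17.7 CPM. The stromal background of H2-Aa was 168 and 39.5 CPM, and the MHC-low cells, at 52.7 and 45.6 CPM, were below it in WT and near it in TNF-Tg. H2-DMa and H2-DMb1, which load peptides, were at 655 and 232 CPM and at 510 and 163 CPM. Ctss, the protease that trims the invariant chain, was at 2152 and 1477 CPM and did not reach a 2-fold difference.

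The lower MHC class II level was seen in the MHC-high cells and in their smaller proportion, and less in the MHC-low cells. Within the MHC-low cells, 4 of the list's genes passed the limit on low values, none was 2-fold lower and their median log2 ratio was −0.49. There H2-Aa was at 52.7 (WT) and 45.6 CPM (TNF-Tg). Within the MHC-high cells H2-Aa was at 8768 and 3008 CPM, a log2 ratio of −1.54, and 5 of 8 list genes were 2-fold lower, beside 104 of all 2472 genes (4.21%, with 86 or 3.48% higher). Because the ranges were set with H2-Aa, H2-Ab1, H2-Eb1 and Cd74, the levels of these genes within them are a description.

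Retnla, a secreted resistin-like protein of alternative activation, had the lowest ratio of the genes counted, at 564 (WT) and 3.19 CPM (TNF-Tg). One WT cell gave 53.4% of its UMIs, and without it the WT value was 269 CPM, beside 230 CPM in WT stromal cells and 13887 CPM in the WT macrophages without Lyve1 described further on. The part of free transcripts in it was not tested. Mgl2 (127 and 1.42 CPM) and Clec10a (257 and 35.99 CPM), genes for closely related galactose-binding lectins between which reads may be shared, and Pltp, a phospholipid transfer protein (286 and 22.7 CPM), showed the same direction. Lyz1, the close paralog of Lyz2 whose reads may be shared with it, was at 408 and 9.57 CPM. Ccl8, a chemokine, was at 127 and 9.75 CPM, below the 551 and 270 CPM of stromal cells, with a log2 ratio of −3.70 over all members and −2.29 over those with Lyz2. Apoe, the lipid carrier of macrophages, was at 3745 and 904 CPM, and stromal cells held 971 and 1014 CPM.

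Within the MHC-low cells these differences were smaller or fell on few molecules. Lyz1 had a log2 ratio of −0.35 and Clec4b1, a lectin receptor, of −0.23 there, against −5.41 and −2.81 over all members. Apoe kept a log2 ratio of −1.54, with 2410 (WT) and 827 CPM (TNF-Tg).

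Chemokines were the ligands with the highest ratios, and different cells of the gate carried them. Of 21 cytokine genes, 10 passed the limit, 4 were 2-fold higher and 0 lower, with a median log2 ratio of 0.58. Ccl2, the ligand of CCR2 (chr11:82035571-82037453), was at 246 CPM and 775 CPM in WT and TNF-Tg, a log2 ratio of 1.66. Stromal cells held 34.3 and 156 CPM. Ccl7, another CCR2 ligand, was at 40.1 and 179 CPM, but stromal cells of TNF-Tg held 474 CPM and 1 cell gave 62.2% of its WT UMIs.

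Ccl3 and Ccl4, inflammatory chemokines, belonged largely to the cells without Lyz2. Ccl4 was at 87.8 (WT) and 378 CPM (TNF-Tg), and 1 cell gave 90.1% of its WT UMIs, without which the WT value was 8.70 CPM. Cells with Lyz2 below 10 gave 96.3% and 93.3% of these UMIs, and over the members with Lyz2 the values were 3.35 and 27.0 CPM. Ccl3 was at 102 and 297 CPM over all members and at 25.7 and 39.5 CPM over those with Lyz2, a log2 ratio of 0.62, and 1 cell gave 74.5% of the UMIs of all WT members. On these members the cytokine list had 2 genes 2-fold higher of 8 and a median log2 ratio of 0.08. Cxcl2, a ligand of the neutrophil receptor CXCR2, was at 140 and 277 CPM over all members (log2 ratio 0.98), and at 76.4 (WT) and 292 CPM (TNF-Tg) in the MHC-low cells. Il1b was at 145 and 121 CPM, Ccl6 at 1699 and 1928 CPM and Ccl9 at 540 and 488 CPM, all within 2-fold. Tnf itself was detected with 3 UMIs in WT and 77 UMIs in TNF-Tg members, at 3.25 and 13.7 CPM, and did not pass the limit on low values.

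In the NF-kB and TNF response list, 3 of 9 genes that passed were 2-fold higher, none lower, and the median was 0.04. Nfkbia (chr12:55489410-55492647) was at 193 CPM (interval 166 to 223) in WT and 598 CPM (578 to 618) in TNF-Tg members. Its log2 ratio was 1.63 over all members, 1.41 in MHC-low cells and 0.78 in MHC-high cells, while stromal cells held 226 and 267 CPM. Sod2, the mitochondrial superoxide dismutase, was at 91.0 and 204 CPM and Tnfaip2 at 146 and 293 CPM, a log2 ratio of 1.00 that fell just short of 2-fold with at least 6 marker UMIs. The TNF receptor genes were within 2-fold, with Tnfrsf1a at 119 and 102 CPM and Tnfrsf1b at 111 and 113 CPM. Nfkb1, a subunit of the factor, was at 86.7 and 98.0 CPM.

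Among receptors for chemoattractants, those for formyl peptides and complement were higher, while Ccr2 and Cx3cr1 were not. Fpr2 was at 23.8 (WT) and 111 CPM (TNF-Tg), a log2 ratio of 2.22, and was detected in 17 of 85 and 262 of 516 members. C5ar1 was at 27.1 and 81.9 CPM, and was short of 2-fold as a mean of each cell's CPM. Ccr2 had a log2 ratio of −0.88, short of 2-fold. Cx3cr1, the fractalkine receptor of patrolling cells, was at 182 and 164 CPM. Of the 7 receptors that passed, Fpr2 and C5ar1 were the 2 that were 2-fold higher, and the median log2 ratio was 0.21.

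All 12 S100 and alarmin genes that passed lay above 0, beside 55.3% of all genes, and 3 were 2-fold higher. The whole list summed to 16097 and 21938 CPM in members, and to 16484 and 26582 CPM in stromal cells. Slpi, an inhibitor of neutrophil elastase, was at 148 (WT) and 559 CPM (TNF-Tg), with a log2 ratio of 1.91 over all members and 0.93 within MHC-low cells. S100a8, a subunit of calprotectin, was at 26.0 and 159 CPM, and WT stromal cells held 176 CPM. Lgals1, which encodes galectin 1, was at 579 and 1479 CPM. S100a6, at 4729 and 6166 CPM, and S100a4, at 3084 and 3893 CPM, differed by less than 2-fold. Hp, the haemoglobin-binding protein haptoglobin, of the monocyte list, was at 790 and 1593 CPM.

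Macrophage genes had a median of 0.69, with 5 of 15 genes 2-fold higher and Apoe lower (3 of 13 higher over the members with Lyz2). The median was 0.36 as a mean of each cell's CPM and −0.086 over the members with Lyz2 and fewer than 5 resident macrophage UMIs, a limit described next. Maf, a transcription factor of tissue macrophages, was at 78.0 (WT) and 210 CPM (TNF-Tg). As a mean of each cell's CPM neither it nor Pf4 was 2-fold higher. Pf4 was at 75.8 and 247 CPM, Ctsl, a lysosomal protease, at 92.1 and 265 CPM, and Cd63, a lysosome membrane protein, at 12 UMIs and 106 CPM, below the 860 and 1120 CPM of stromal cells, with 53.3% of its TNF-Tg UMIs from cells with Lyz2 below 10. A group of members with Lyz2 was chosen by at least 5 UMIs of resident macrophage markers, Pf4 and Mrc1 among them, so its shares of those genes are not given. There were 16 such cells in WT and 82 in TNF-Tg, and the 82 gave, of genes outside that marker list, 92.4% of the TNF-Tg UMIs of Ccl7, 91.1% of Dab2 (an endocytic adaptor), 78.2% of Maf and 60.2% of Ccl2. All 16 WT cells were in the MHC-high range, while 56 of the 82 TNF-Tg cells were in the MHC-low range. Of the 33 WT MHC-low cells, 0 reached that limit (exact interval 0 to 10.6%).

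When these cells and the MHC-high cells were both set aside, the TNF-Tg to WT comparison had 33 and 354 cells. Of 2545 genes, 32 were 2-fold higher (1.26%) and 61 lower (2.40%). This choice removed 56 TNF-Tg and 0 WT cells from the MHC-low range by markers that include Mrc1 and Pf4 of the macrophage list, so values of that list here follow in part from the choice and are not read. Ccl2 had a log2 ratio of 0.48 (0.20 to 0.77) and C5ar1 of 0.48. Log2 ratios were above 1 for, among others, Nfkbia (1.63), Sod2 (1.20), Slpi (1.18), Cxcl2 (1.81), S100a8 (1.80), Fpr2 (2.16), Trem3, an activating myeloid receptor (1.80), and Arl5c, a small GTPase (2.36). Ifitm1, an interferon-induced membrane protein, had the highest ratio over all members at 37.9 and 400 CPM. Cells with Lyz2 below 10 gave 68.6% and 60.1% of its UMIs, in WT from 1 cell, and its log2 ratio was 3.80 over the members with Lyz2 and 1.31 over these 33 and 354 cells.

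**Figure D4:**
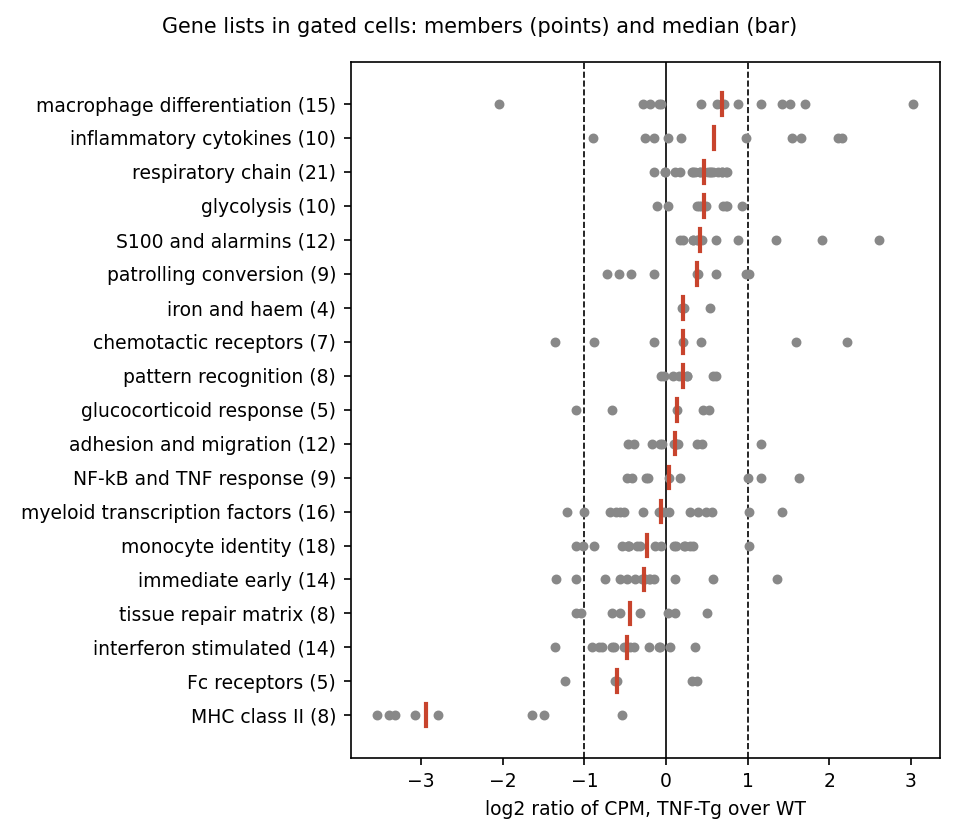
Log2 ratio of CPM, TNF-Tg over WT, for each gene that passed the limit on low values (grey points) in 19 gene lists (rows, genes in parentheses), with the list median as a red bar and dashed lines at 2-fold. The median of MHC class II, −2.94, lies apart from the others, which run from −0.61 for Fc receptors to 0.69 for macrophage differentiation.

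Genes of monocyte identity differed little by comparison. Of 18 that passed, 1 was 2-fold higher (Hp, log2 ratio 1.01) and 2 lower, with a median of −0.23. The higher count was 0 with at least 6 marker UMIs. It was also 0 over cells of at least 3000 UMIs and at most 10% mitochondrial UMIs. The lower ones were Vcan, a matrix proteoglycan of classical monocytes, at 494 and 230 CPM, and Ms4a4c at 688 and 339 CPM. Ms4a4c had a log2 ratio of −1.02 over all members and of −0.98, just short of 2-fold, over those with Lyz2. WT stromal cells held 329 CPM of Vcan. In the MHC-low cells Vcan had a log2 ratio of −1.67 and Thbs1, a matrix glycoprotein, of −1.77. Over all members Thbs1 was at 232 and 113 CPM (log2 ratio −1.04), and over those with Lyz2 it was just short of 2-fold lower (−0.99). A single WT cell gave 26.6% of its WT UMIs, and without the top cell of each library its log2 ratio was −0.71.

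Of 14 genes of the interferon-stimulated list that passed, 0 were 2-fold higher and 1 lower, with a median of −0.47. Ifitm1, given above, is not on that list. Ifi27l2a was at 2521 and 1342 CPM, and Ly6a, the lower one, at 75.8 and 29.6 CPM, far below the 3189 and 3871 CPM of stromal cells. Isg15 was at 70.4 and 90.1 CPM. Within MHC-low cells the list median was −0.06, with 0 of 12 genes lower and 1 higher, Isg15, at 34.2 and 90.1 CPM (log2 ratio 1.40). Among 14 immediate early genes, which also respond to tissue digestion, 1 was higher and 2 lower, with a median of −0.27. Fosb was at 179 and 70.2 CPM and Dusp1 at 1004 and 469 CPM, just short of 2-fold as a mean of each cell's CPM. Ier3 was at 116 and 297 CPM, of which cells with Lyz2 below 10 gave 36.6% in TNF-Tg.

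Of 5 Fc receptor genes, Fcgr2b, the inhibitory receptor for IgG, was 2-fold lower at 351 and 149 CPM, while Fcer1g, the signalling chain, was at 3102 and 4042 CPM. Among 16 myeloid transcription factors, 2 were higher (Maf and Nr4a1) and 2 lower (Cebpa at 131 and 56.7 CPM, and Id2), with a median of −0.06. Cebpb, at 1387 and 1953 CPM, and Klf2, at 635 and 937 CPM, were within 2-fold. Of 9 genes of conversion to patrolling monocytes, 1 was higher, Nr4a1, the factor that patrolling cells require, at 53.1 and 107 CPM, with 49.9 and 48.1 CPM in stromal cells. The list median was 0.38. With the gate set after thinning to 5000 UMIs, 4 of 11 were higher and the median was 0.82. With at least 3000 UMIs and at most 10% mitochondrial UMIs per cell, 0 were higher.

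Energy metabolism genes lay slightly above 0 as groups without any 2-fold difference. Glycolysis genes had a median of 0.46, with 9 of 10 above 0, and Gapdh was at 847 and 1411 CPM. Respiratory chain genes had a median of 0.47, with 18 of 21 above 0, and Cox8a was at 1002 and 1335 CPM. In stromal cells the summed levels of both lists were also higher in TNF-Tg, at 1194 and 2225 CPM for glycolysis and 5267 and 7964 CPM for the respiratory chain. Pattern recognition (8 genes), iron and haem (4), and adhesion genes (12) had medians of 0.20, 0.21 and 0.11, with 0, 0 and 1 gene 2-fold higher. In the adhesion list the higher gene was Cd9, at 31.4 and 70.2 CPM, and cells with Lyz2 below 10 gave 70.7% of its TNF-Tg UMIs. Of 8 tissue repair genes 2 were lower (Vcan and Thbs1, median −0.44), and of 5 glucocorticoid-response genes 1 was lower (Dusp1, median 0.14). Marrow granule genes were nearly absent. Of 9, only Hmgn2, a chromatin protein not confined to granules, passed, at 40.1 and 94.3 CPM, and Elane, Mpo, Sox4 and Ms4a3 were at 0 in WT. At least 5 UMIs of proliferation genes were held by 1 of 85 WT and 36 of 516 TNF-Tg members, and of that list Pcna alone passed, at 59.6 and 55.1 CPM.

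Since the conditions held the MHC ranges in such unequal proportions, TNF-Tg and WT were compared within MHC-low cells alone. Of 2573 genes, 46 were 2-fold higher (1.79%) and 48 lower (1.87%). Of the 50 genes higher over all members, 29 were again 2-fold higher here and 50 had the same sign. Of the 63 lower genes, 22 were again 2-fold lower and 57 had the same sign. These cells are part of those that gave the first counts, so the counts are not independent of each other. The genes furthest below WT here were taken among those past the limit on low values with an interval beyond 1.5-fold. Named after their values were seen, they were Gcnt2 (97.5 and 24.6 CPM), Fosb, Thbs1, Vcan and Klra2 (190 and 62.4 CPM).

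MHC-high and MHC-low monocytes differed from each other within each library in part by the same genes. In WT, 78 of 2562 genes were 2-fold higher in MHC-high cells (3.04%) and 99 lower (3.86%). In TNF-Tg, 31 of 2469 were higher (1.26%) and 76 lower (3.08%). The libraries shared 19 higher genes, which is 24.4% of those in WT and 61.3% of those in TNF-Tg, and 27 lower genes, 27.3% and 35.5%. Genes named here from this comparison were chosen after their values were seen.

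Slpi was the shared gene furthest below, at 345 CPM in MHC-low and 11.6 CPM in MHC-high cells of WT, and 658 and 33.2 CPM in TNF-Tg. Hp went from 1236 to 504 CPM and from 1878 to 446 CPM. Mgst1 and Gsr, of glutathione metabolism, complement C3, coagulation factor F10, the integrin chain Itgal and Nr4a1 had the same direction in both.

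Higher in MHC-high cells of both libraries, outside the 4 genes that set the ranges, were H2-DMb1 (94.8 to 842 CPM in WT, 85.1 to 695 CPM in TNF-Tg) and H2-DMa (234 to 997 CPM, 169 to 678 CPM). Apoe was also higher, at 2410 and 4864 CPM in WT and 827 and 1913 CPM in TNF-Tg, as were Aif1, Tmem176a, Tmem176b and Fcgr2b. Ccr2 was at similar levels, 1726 and 2259 CPM in WT and 1090 and 1468 CPM in TNF-Tg. Resident macrophage markers were higher in the same cells. At least 5 UMIs of them were held by 16 of 47 WT and 26 of 48 TNF-Tg MHC-high cells. Dendritic cell markers were higher there too. They summed to 81.7 CPM in MHC-low and 520 CPM in MHC-high cells of WT, and to 52.7 and 141 CPM in TNF-Tg. The part of cells with either set of markers in the differences was not tested.

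Across members with Lyz2 thinned to 3000 UMIs, the MHC class II list had a Spearman correlation with the macrophage list of 0.48 over 79 WT cells and 0.26 over 451 TNF-Tg cells. Its correlation with the NF-kB list was −0.29 and −0.23. All points of a correlation share a library, and some lists rest on few molecules per cell. The MHC class II list was the most uneven of the 30 lists in both libraries, with a variance of 68.7 times its mean in WT and 31.9 times in TNF-Tg. The cytokine list was more uneven in TNF-Tg, at 13.7 times its mean against 4.28 times in WT.

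Side by side with the other gated myeloid cells of these libraries, the inflammatory monocytes lay between patrolling monocytes (47 WT and 381 TNF-Tg cells with at least 3 UMIs of the patrolling genes) and macrophages without Lyve1 (417 and 182 cells with at least 10 UMIs of C1q genes) for some genes and apart from both for others. Their own gate and those of the other cells separate them, so the values carry no test. Slpi was at 148 and 559 CPM in inflammatory monocytes, 12.98 and 428 CPM in patrolling monocytes and 1.67 and 80.6 CPM in macrophages, but 3247 and 3456 CPM in neutrophils (328 and 210 cells). Mrc1 was at 143 and 230 CPM, against 1268 and 1413 CPM in macrophages.

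The lower H2-Aa level was not confined to inflammatory monocytes. Patrolling monocytes held 1746 (WT) and 253 CPM (TNF-Tg), macrophages without Lyve1 8111 and 1477 CPM, and neutrophils 488 and 136 CPM. Stromal cells, which should lack H2-Aa, held 168 and 39.5 CPM, and the part of free transcripts in these differences was not tested. Nfkbia was higher in TNF-Tg patrolling monocytes (305 and 851 CPM) and neutrophils (432 and 2081 CPM) and not in macrophages (220 and 153 CPM). Of the 4 gates, Ccl2 was highest in macrophages of both libraries, at 809 and 1684 CPM. Lyz2 was lower in TNF-Tg than in WT inflammatory monocytes and macrophages, and higher in TNF-Tg patrolling monocytes and neutrophils. Whether these effects differ between the cell types was not tested, since there is no replicate.

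**Figure D5:**
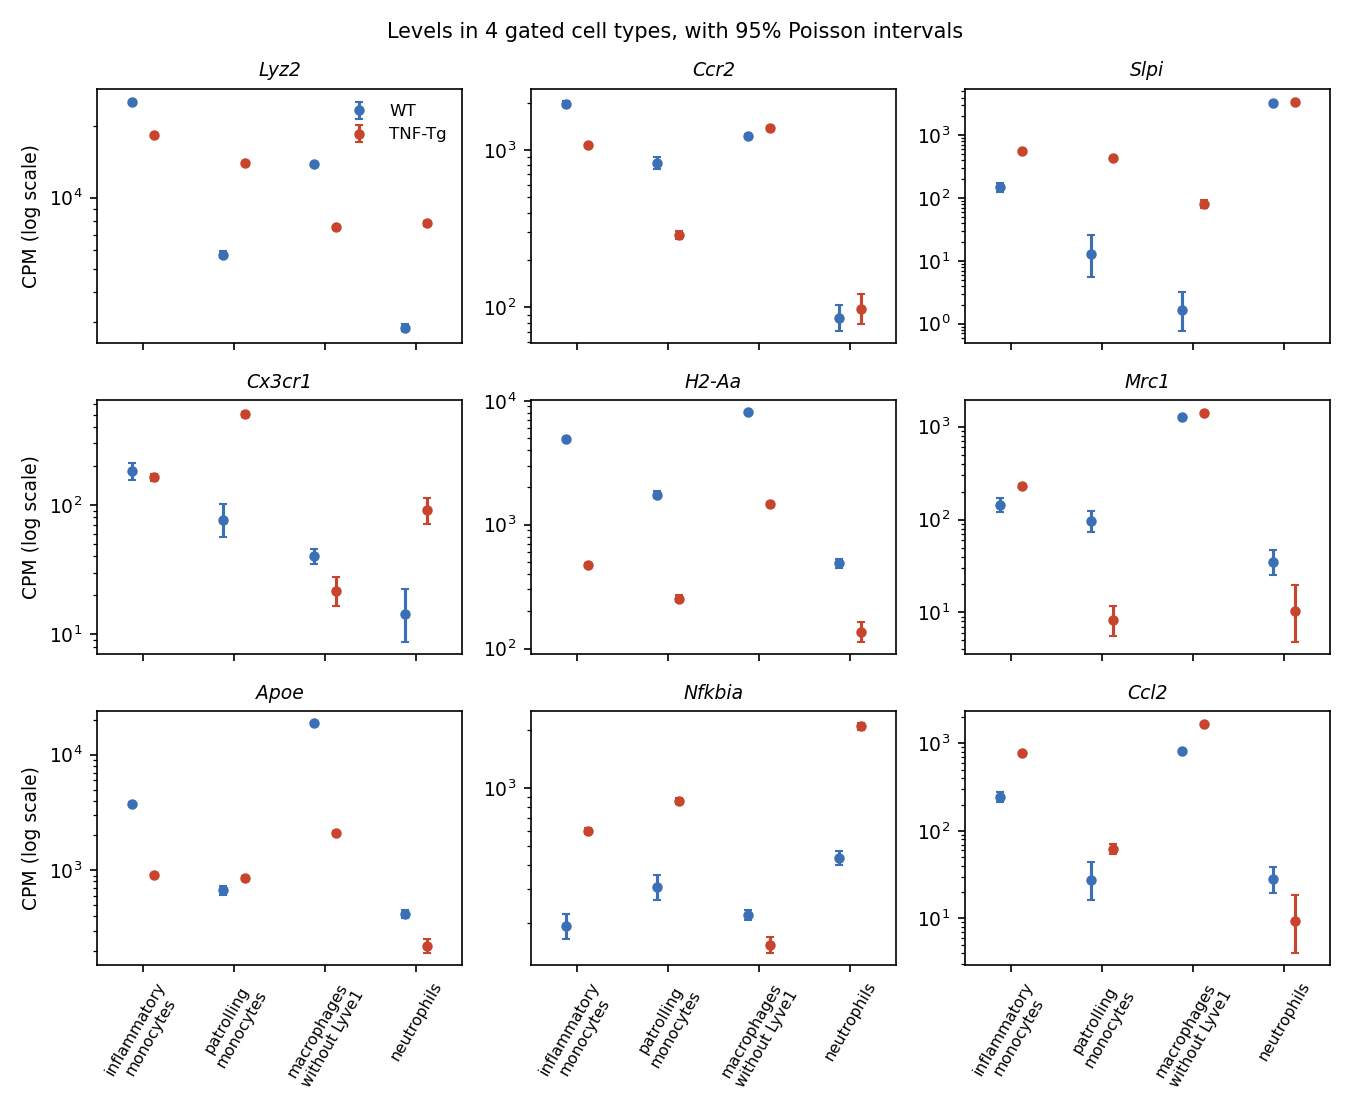
CPM (log scale) of 9 genes in gated inflammatory monocytes, patrolling monocytes, macrophages without Lyve1 and neutrophils of the WT (blue) and TNF-Tg (red) libraries, as points with exact Poisson 95% intervals. H2-Aa is lower in TNF-Tg in each of the 4 gates, and Ccr2 is at 1974 and 1074 CPM in inflammatory monocytes against 85.8 and 97.8 CPM in neutrophils.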

How the data were processed

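Single-cell RNA-seq of 4 libraries was used. The authors deposited whole-number counts of UMIs, made by Cell Ranger and not normalized. The matrix headers name version 3.1.0 for tdT1 and 6.0.1 for tdT2, WT and TNF-Tg, whereas the submitters' processing notes name 3.1 and 3.1.0, with Seurat 4.0.3 and mm10. Libraries held 1504 (tdT1), 454 (tdT2), 5488 (WT) and 3391 (TNF-Tg) cells and 14256192, 2357031, 68773605 and 37557627 UMIs. The gate, gene lists and members were chosen with earlier results of these data known.

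UMIs of gated cells were summed per library and scaled to CPM in Python 3.11.15 (numpy 2.4.6, pandas 2.3.3, scipy 1.17.1). Genes with a mean of at least 50 CPM over both libraries were counted as higher or lower from a 2-fold ratio. Shares have exact Clopper-Pearson, CPM exact Poisson and ratios exact conditional binomial intervals at 95%, and a count of 0 allows 3. Named genes were the 12 highest and 12 lowest ratios whose interval lay beyond 1.5-fold, the 20 most abundant genes, the 2 most abundant and 2 most different genes of each of 30 lists, and the gate and monocyte markers; other named list members, and those said to be, were chosen after their values were seen. Cells were thinned with seed 42. edgeR 4.0.16 and DESeq2 1.42.0 (R 4.3.3) gave the scaling factors of alternatives only, and Scrublet in scanpy 1.11.5 the doublets. Ratios and intervals were tested on simulated data. Gene positions are from GENCODE vM21 (GRCm38), where all 432 identifiers named matched, and promoters from RefSeq (GRCm38.p6). Alternatives changed scaling, limits, thinning, doublets and quality; members with Lyz2, and those with few resident macrophage UMIs, were added after seeing the data.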

Additional observations from a re-analysis of the deposited data

Results flagged for a closer look

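The gate was also met by cells of the libraries sorted for tdTomato, which no comparison above used. There were 12 such cells of 1504 in tdT1 (0.798%, 0.413 to 1.39%) and 17 of 454 in tdT2 (3.74%, 2.20 to 5.93%). At least 10 UMIs of Lyz2 were held by 6 of the 12 and 16 of the 17. In each library 5 of them had Lyz2 and MHC class II at or over 50 per 10000. In tdT2, whose gene list holds the reporter, 5 of the 17 cells had a tdTomato UMI, while 25.6% of stromal cells and 11.3% of all cells with low Dcn in that library had one.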

How the results depend on the processing

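With 1 library per condition no library could be left out, and no paired analysis was possible because the groups compared share fewer than 2 replicate numbers. The ratio of shares stayed between 3.104 and 3.394 on the log2 scale under all alternatives run. The counts of higher and lower genes were 110 and 134 from a mean of 20 CPM, 29 and 35 from 100 CPM, and 751 and 4547 with no limit and a count of 0 set to 3 UMIs, where the smaller WT sum makes unseen genes look lower in TNF-Tg by construction. The MHC class II median of −2.94 was −2.86 with TMM factors, −3.05 as a mean of each cell's CPM, −3.06 with at least 6 marker UMIs, −2.75 with the gate set after thinning to 5000 UMIs, −3.18 over members with Lyz2, −3.32 over those with few resident macrophage UMIs, −2.80 from 20 CPM and with no limit, and −3.08 from 100 CPM. The medians of 10 of 21 lists changed sign under at least 1 alternative. The glucocorticoid median of 0.14 was −0.88 from 20 CPM, −0.26 from 100 CPM, −0.66 with no limit, −0.090 over members with Lyz2 and −0.056 over those with few resident macrophage UMIs. Over the latter, the macrophage median turned from 0.69 to −0.086, the cytokine median from 0.58 to −0.15 (1.12 as a mean of each cell's CPM, 0.98 from 20 and from 100 CPM, 0.15 with at least 6 marker UMIs, 0.18 with no limit), the chemotactic receptor median from 0.21 to −0.40 (−0.032 with at least 6 marker UMIs), the adhesion median from 0.11 to −0.044 and proliferation, of 1 gene, from −0.11 to 0.13 (0.22 from 20 CPM, 0.65 with no limit). With the thinned gate, monocyte identity turned from −0.23 to 0.12, tissue repair from −0.44 to 0.0094 and myeloid transcription factors from −0.056 to 0.26 (0.020 with TMM and 0.017 with median-of-ratios factors). The marrow granule median, of 1 gene at 1.23, was 0.58 from 20 CPM and turned to −1.03 with no limit. The NF-kB median of 0.04 was 1.00 from 100 CPM, 0.54 with the thinned gate, and 0.34 both from 20 CPM and with no limit. Over members with few resident macrophage UMIs Maf turned to −0.031, Pf4 to −0.59 and Cd9 to −0.18, and Cd9 was −0.34 over members with Lyz2 and −0.00291 with the thinned gate. The cause was not tested. Without predicted doublets, 49 of the 50 higher and 61 of the 63 lower genes were counted again. The macrophage list then had 4 of 14 genes higher, the adhesion list 0 of 11 higher and the interferon list 0 of 13 lower. Counted without the limit on low values, 37 to 45 of the 45 named genes with a 2-fold difference kept it under each alternative on cells or scaling. Doublet removal then lost it for none. Ms4a4c and Thbs1 lost it with TMM or median-of-ratios factors and over members with Lyz2, Maf, C5ar1, Dusp1 and Pf4 as a mean of each cell's CPM, Tnfaip2 with at least 6 marker UMIs and with the quality limits, Nr4a1 with the latter, Ms4a4c and Dusp1 with the thinned gate, and Cd63, Dab2, Ms4a4c, Maf, Ly6a, Ier3 and Pf4 over members with few resident macrophage UMIs. Cd9 lost it in 4 of these. Of all 113, 106 kept it without the top cell of each library.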
